A study of Mus musculus with 3 samples.

Results

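The AP-1 subunit genes are the 10 mouse genes Fos, Fosb, Fosl1, Fosl2, Jun, Junb, Jund, Atf3, Batf and Batf3. Their members in the data were chosen by position: every H3K27ac peak that came within 100 kb of the body of one of these genes on the GRCm38 mouse genome was taken. This gave 109 of the 38793 peaks of the post-caerulein list and 109 of the 37765 peaks of the untreated list, or 218 of 76558 peaks in all. The windows of Atf3 and Batf3 overlap, so 3 post-caerulein and 4 untreated peaks stood in both.

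The study derived spheroids, 3-dimensional cultures of pancreatic epithelial cells, from post caerulein-treated mice and from untreated mice, all C57BL/6J wild type. Caerulein is a cholecystokinin analogue that causes a transient pancreatitis, and the study asked what an inflammation that has resolved leaves behind in the epithelium. H3K27ac, an acetylated lysine of histone H3, was mapped by ChIP-seq with antibody ab4729 in 1 library of post-caerulein spheroids and 1 library of untreated spheroids. Both cultures grew in the same medium, which held EGF, hydrocortisone and cholera toxin, so both sets of spheroids had an AP-1-inducing growth factor in their medium. The labels give no caerulein dose, no time since treatment, and no age, sex or number of mice, and they do not say whether mice were pooled. With 1 library per condition there was no replicate and no test, so all differences below compare 2 libraries. A change in the mix of cells and a change of acetylation in each cell cannot be told apart.

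The labelled cell type was checked at its markers, by whether a peak of a list came within 1 kb of either end of the gene. Such a peak can also belong to an adjoining gene, so a marked end alone does not show that a cell type was present. The duct markers Krt19, Krt7, Sox9, Epcam and Cdh1 were all marked in both lists. Of 5 acinar markers only Bhlha15 was marked in both lists, and Ptf1a, Cpa1, Cela1 and Rbpjl were marked in neither. None of 5 mesenchymal markers and 1 of 5 endothelial markers (Vwf) were marked. Of 5 immune markers, Spi1 and Cd68 were marked in both lists, Ptprc post-caerulein only, and Cd3e and Adgre1 in neither. Covered length within 100 kb, which takes in neighbours too, was over 1.5-fold lower post-caerulein at 3 endothelial markers, beside 5.03% of all protein-coding genes. Tek had 0 kb post-caerulein and 4.13 kb untreated, Cdh5 0 kb and 1.91 kb, and Kdr 6.29 kb and 15.1 kb. The fold, with 1 kb added to each length, rested on only 2 untreated peaks at Tek and 1 at Cdh5. Covered length was also lower at Spi1 (13.7 kb post-caerulein, 24.3 kb untreated). It was over 1.5-fold higher at Ptprc (11.05 kb, 5.47 kb), Pdgfrb (19.1 kb, 11.0 kb) and Sox9 (14.0 kb, 7.22 kb), beside 5.23% of all protein-coding genes. Krt19 had 0 unshared peaks post-caerulein and 6 untreated. The part of a change in cell mix in the values below was not tested. Over all 21887 protein-coding genes, an end was marked in 54.8% post-caerulein and in 54.3% untreated, and 43.9% had none marked in either list.

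AP-1 is a family of dimeric transcription factors with a basic region that binds DNA and a leucine zipper that holds the partners together. Fos proteins need a partner, usually a Jun protein, whereas Jun proteins can also pair among themselves, and the complexes bind the palindrome TGANTCA. Several of the genes are immediate-early genes, transcribed within minutes of growth factor, stress or cytokine signals through MAP kinases, and in the mouse pancreas Fos and Jun are known to be induced early in caerulein pancreatitis. H3K27ac lies on active promoters and enhancers, so the peaks show where the chromatin around these genes carried that mark in each culture, not how much RNA the genes made.

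The bases just before 6 of the gene starts are shown as examples that differ in CpG content and in marking. Fos, Jun and Atf3 were CpG-rich and marked, Jund was CpG-poor and marked, and Batf and Batf3 were unmarked in both lists. The sequences are the 250 bases before the start in RefSeq's promoter table for GRCm38.p6, read 5′ to 3′ on the gene's strand, and capitals mark a match to a TATA box (TATAAA), the core of the cAMP response element (CRE; TGACGT) or the AP-1-like site known from the Jun promoter (TGACATCA). They lie at chr12:85473640-85473889 on the plus strand for Fos, chr4:95052223-95052472 on the minus strand for Jun, chr8:70697489-70697738 on the plus strand for Jund, chr1:191183334-191183583 on the minus strand for Atf3, chr12:85686470-85686719 on the plus strand for Batf and chr1:191098164-191098413 on the plus strand for Batf3.
Fos: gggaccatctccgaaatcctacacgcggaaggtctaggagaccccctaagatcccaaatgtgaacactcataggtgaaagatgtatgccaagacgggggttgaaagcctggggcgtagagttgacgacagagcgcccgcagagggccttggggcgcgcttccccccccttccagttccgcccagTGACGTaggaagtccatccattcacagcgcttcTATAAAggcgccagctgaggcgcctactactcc
Jun: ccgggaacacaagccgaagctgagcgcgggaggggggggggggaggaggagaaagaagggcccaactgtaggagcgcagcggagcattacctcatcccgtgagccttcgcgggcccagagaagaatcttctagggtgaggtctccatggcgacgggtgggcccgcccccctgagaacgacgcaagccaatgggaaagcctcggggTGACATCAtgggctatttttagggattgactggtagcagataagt
Jund: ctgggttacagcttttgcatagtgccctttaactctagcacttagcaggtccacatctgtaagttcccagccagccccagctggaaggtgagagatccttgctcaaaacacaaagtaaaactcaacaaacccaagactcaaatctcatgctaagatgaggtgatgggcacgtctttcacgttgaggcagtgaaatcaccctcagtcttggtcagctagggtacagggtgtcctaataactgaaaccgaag
Atf3: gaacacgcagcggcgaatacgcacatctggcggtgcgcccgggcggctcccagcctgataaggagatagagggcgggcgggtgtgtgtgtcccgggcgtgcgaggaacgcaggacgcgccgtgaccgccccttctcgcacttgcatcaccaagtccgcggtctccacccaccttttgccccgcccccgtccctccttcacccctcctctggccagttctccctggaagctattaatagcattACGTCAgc
Batf: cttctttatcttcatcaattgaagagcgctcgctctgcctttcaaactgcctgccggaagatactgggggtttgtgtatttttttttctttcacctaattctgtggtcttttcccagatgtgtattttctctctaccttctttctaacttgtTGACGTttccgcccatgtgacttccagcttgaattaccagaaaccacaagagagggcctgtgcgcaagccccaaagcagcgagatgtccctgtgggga
Batf3: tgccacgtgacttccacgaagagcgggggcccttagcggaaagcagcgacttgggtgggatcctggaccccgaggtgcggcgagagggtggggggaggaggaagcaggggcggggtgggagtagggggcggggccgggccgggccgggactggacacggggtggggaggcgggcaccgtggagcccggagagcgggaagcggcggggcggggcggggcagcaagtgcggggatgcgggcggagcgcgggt

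Both strands were searched, and positions are counted back from the first base before the start, which is -1. The Fos sequence held the TATA box at -33 to -28 and the CRE core at -66 to -61. Jun held TGACATCA at -45 to -38, Atf3 the CRE core on the opposite strand at -8 to -3, and Batf the CRE core at -98 to -93. Of the 9 members with a promoter sequence, 3 held the CRE core, against 6.47% of 32851 RefSeq promoters, 1 held TATAAA (12.4%) and 1 held TGACATCA (2.93%). The GC box GGGCGG, left in lower case, stood in 7 of 9 (32.7%), and CCAAT in Jun and Junb, 2 of 9 (33.8%). TGACGT, TGACATCA and CCAAT were added after values or sequences were seen, so no enrichment is drawn from their shares. No member held TGANTCA (6.75%), the full CRE TGACGTCA (1.55%), which contains the core, or the CArG box of serum response factor (1.47%) in these windows. GC content was 58.4% in Fos, 61.2% in Jun, 65.2% in Atf3, 76.0% in Batf3, 47.6% in Jund and 46.4% in Batf, beside a median of 52.4% over all promoters. The CpG ratio, observed over expected from the base composition, was 0.919 in Atf3 and in Batf3, 0.705 in Fos, 0.676 in Jun, 0.526 in Batf and 0.213 in Jund, beside a median of 0.373. Fosb, Fosl2 and Junb, also marked, had GC contents of 68.8%, 64.4% and 66.4% and CpG ratios of 0.660, 0.893 and 0.762. Batf3 was thus rich in CpG and unmarked, and Jund was poor in CpG and marked. Only Batf and Batf3 were unmarked, and whether base composition goes with marking was not tested.

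Peaks covered the starts of Fos, Fosb, Fosl2, Jun, Junb, Jund and Atf3 in both lists, and those of Batf and Batf3 in neither. With a reach of 1 kb for a marked start, this gave 7 of 9 members post-caerulein and 7 of 9 untreated. Among 17492 protein-coding genes with a start in the table, 54.9% were marked post-caerulein, 54.1% untreated, 53.2% in both and 2.66% in 1 list alone. For Fosl1, both ends of the gene were marked in both lists. No member start was thus marked in 1 condition alone. Widths of the start peaks were close at Jun, Jund and Atf3 and differed more at Fos, Fosl2 and Junb. By score, read only within its own list, the Fosb start peak stood at percentile 62.9 post-caerulein and 88.4 untreated. A score of 3100 stood at percentile 92.1 post-caerulein and 88.4 untreated, so percentiles of the lists are not on 1 scale.

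**Figure D1:**
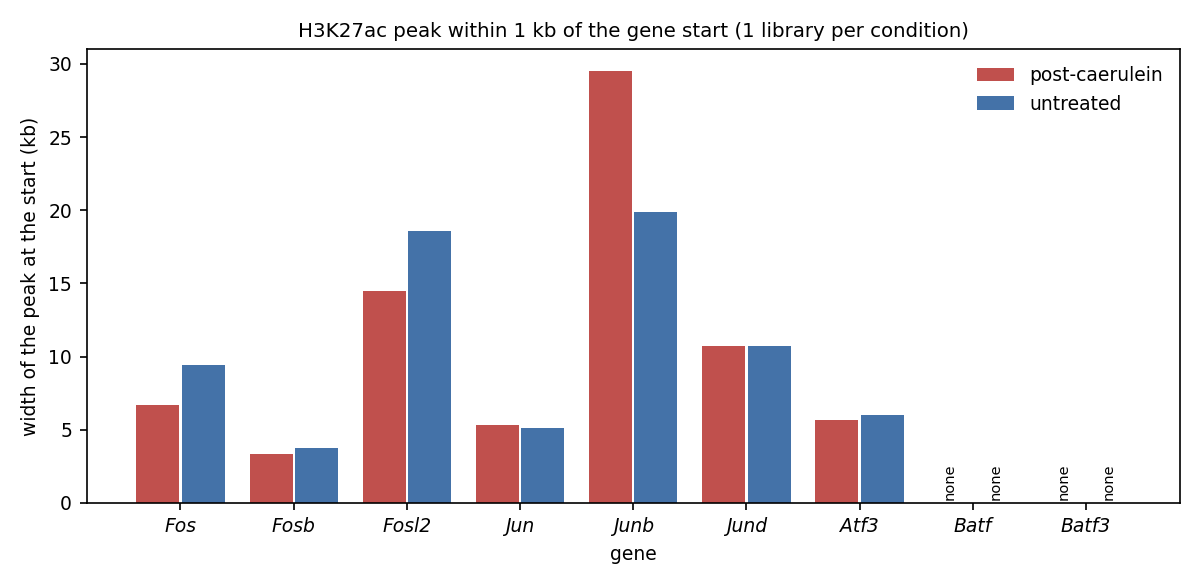
Width in kb of the H3K27ac peak within 1 kb of each gene start, post-caerulein (left bar of each pair) and untreated (right bar), 1 library per condition. Junb has the widest peak of each condition, 29.5 kb post-caerulein and 19.9 kb untreated, and Batf and Batf3 have none. Fosl1, which has no start in the table, is not plotted.

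Fos, the founding member of the family and an immediate-early gene, lies at chromosome 12, 85473890 to 85477274, in a window with 1 other protein-coding gene, Tmed10. The peaks over the start were 6.65 kb wide post-caerulein (chr12:85471075-85477727) and 9.39 kb untreated (chr12:85471026-85480416). The narrower post-caerulein peak was followed, 5 bp on, by a separate peak of 3.01 kb, so the same stretch was covered in both lists. The difference in peak width at the Fos start was therefore a difference in where a peak was divided.

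Upstream of Fos, both lists held a run of broad domains, all at the score of 3100 where the authors' peak scores pile up. The nearest spanned 6.53 to 30.0 kb upstream and was 23.4 kb wide post-caerulein, against 22.6 kb untreated, and it was the widest peak of the window in each list. The next was 17.8 kb wide post-caerulein and 16.4 kb untreated, and the one after it, 72.8 to 91.4 kb upstream post-caerulein, was 18.6 kb against 18.7 kb. These 3 domains lay outside coding genes, and Fos was the coding gene nearest to both closer ones, while the farthest was nearest to Tmed10. Downstream, a peak 8.80 kb from the start was 5.84 kb wide post-caerulein and 6.15 kb untreated. Distal enhancers on both sides of Fos have been mapped in mouse neurons, and whether these domains coincide with them was not examined here.

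In the whole Fos window, peaks covered 93.7 kb post-caerulein and 91.1 kb untreated, of which 88.1 kb were covered in both, 5.58 kb post-caerulein alone and 3.04 kb untreated alone. Outside coding gene bodies and 1 kb on each side of them, the window held 196.2 kb, and 86.5 kb of it were covered post-caerulein and 83.9 kb untreated. With windows of the same reach, 98.3% of protein-coding genes had less covered length than Fos in each list. All 12 post-caerulein and all 11 untreated peaks overlapped a peak of the other list. Among peaks that overlapped 1 to 1 in this window, the ratio of widths passed 1.5-fold at 2 of them: one 94.4 kb downstream was 4.30 kb wide post-caerulein and 2.79 kb untreated, and one 61.8 kb upstream post-caerulein was 1.53 kb wide, against 2.74 kb untreated.

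Fosb, which encodes another Fos-family activator known for its long-lived splice variant in neurons, lies at chromosome 7, 19302696 to 19310118, among 12 other coding genes. Its start peak was 3.36 kb wide post-caerulein and 3.73 kb untreated. The scores of these peaks, read only within their own list, were 1035.67 post-caerulein, at percentile 62.9 of that list, and 3100 untreated, at percentile 88.4 of its list with ties at their middle rank. Scores of different lists were not compared. Fosb was the only start-marked member with a score under 3100 in a list.

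Of the Fosb window, 57.8 kb were covered post-caerulein and 65.9 kb untreated, with 10.2 kb covered untreated alone and 2.11 kb post-caerulein alone. A single peak without overlap made up much of this: 6.00 kb at chr7:19257081-19263084 over Vasp, an actin regulator, in the untreated list, 1.57 kb from the nearest post-caerulein peak. It was the widest unshared peak of all the windows, and it lay 39.6 kb from the Fosb body. The widest peaks of the window, over Opa3, were 12.1 kb post-caerulein and 13.9 kb untreated. Of the peaks in this window, 4 in each list had Fosb as the nearest coding gene.

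Fosl1 encodes Fra-1, a Fos relative without the transactivation domains of Fos and known as a target of growth factor signalling in carcinomas. The gene lies at chromosome 19, 5447698 to 5455938, among 16 other coding genes. The peaks at its ends were 8.80 kb and 2.87 kb post-caerulein, against 8.19 kb and 3.47 kb untreated. The window held 15 peaks post-caerulein and 21 untreated, the largest difference in number among the members, while the covered length was 67.4 kb post-caerulein and 72.3 kb untreated. Joined pieces entered these numbers: a post-caerulein peak of 11.6 kb over AI837181 and Drap1 stood over 3 untreated peaks of 5.36, 2.51 and 3.28 kb, and 2 further post-caerulein peaks each stood over 2 untreated ones. The other way round, 13.1 kb untreated over Ovol1 and Ap5b1 stood over post-caerulein peaks of 4.04 kb in the window and 5.56 kb beyond it. The untreated list also had 2 peaks with no overlap, at chr19:5499537-5501345 over Snx32 and at chr19:5511826-5513386 close to it, the second 66 bp from a post-caerulein peak.

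Fosl2 encodes Fra-2, the other Fos relative without those domains. It lies at chromosome 5, 32136472 to 32157840, with only Babam2 and Plb1 as coding neighbours in the window. Its start peak was 14.5 kb wide post-caerulein (chr5:32131900-32146384) and 18.6 kb untreated (chr5:32131710-32150320), wider than 97.8% of peaks post-caerulein and 99.0% untreated. The untreated peak ran 13.8 kb into the gene, against 9.91 kb post-caerulein, where a gap of 1116 bp separated it from a second peak of 4.30 kb. The untreated list had its own break further on: another peak of 2.21 kb followed the wide one after 103 bp.

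A second broad domain lay beyond the 3′ end of Fosl2. From 39.5 to 64.9 kb downstream of the start, the post-caerulein list had peaks of 2.69, 2.23 and 20.4 kb, with gaps of 1 to 56 bp. The untreated list had 12.6 kb and 12.6 kb there, with a gap of 111 bp. The domain thus covered about the same stretch in both conditions and was divided at different places. Fosl2 was the nearest coding gene of 10 peaks post-caerulein and 9 untreated, the most of any member. Over the window, 63.8 kb were covered post-caerulein and 70.5 kb untreated, and 39.9 kb against 43.5 kb outside coding gene bodies and their 1 kb flanks. An upstream peak 10.6 kb from the start post-caerulein was 2.03 kb wide, against 3.42 kb untreated, and 1 untreated peak, chr5:32085959-32087968, nearest to Babam2, had no overlap and stood 629 bp from a post-caerulein peak.

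**Figure D2:**
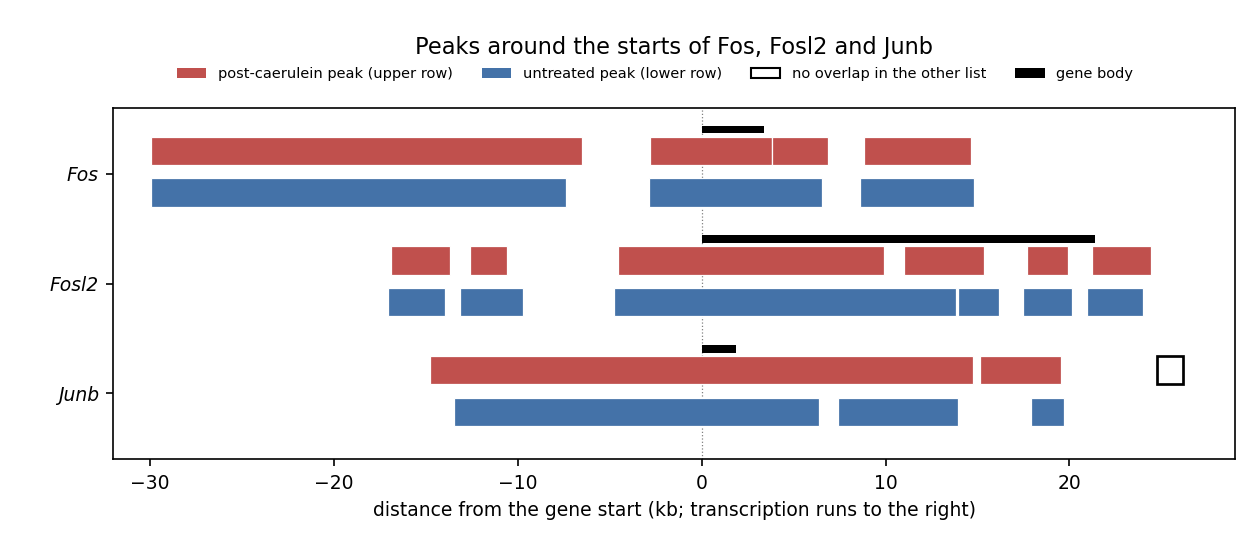
Peaks around the starts of Fos, Fosl2 and Junb, drawn by distance from the gene start in kb with transcription to the right; the upper row of each gene is post-caerulein, the lower row untreated, and black bars are gene bodies. Fos and Fosl2 have the wider start peak in the untreated row and Junb in the post-caerulein row, and the open box near Junb is a post-caerulein peak with no overlap in the untreated list.

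Jun encodes the central Jun-family activator, the partner of Fos proteins and the substrate of the JNK kinases. The gene lies at chromosome 4, 95049036 to 95052222, with Mysm1 as its only coding neighbour, and 18.8 kb of its window were covered post-caerulein and 13.8 kb untreated. This was low among the members but near the middle of all protein-coding genes, of which 51.3% had less post-caerulein and 43.4% untreated. The start peak was nearly as wide in both lists, 5.33 kb post-caerulein and 5.12 kb untreated. The window held 9 peaks post-caerulein and 6 untreated, and all 6 untreated peaks were shared.

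The other 3 post-caerulein peaks had no untreated overlap, the most of any member, and Jun was the nearest coding gene of each. The first, at chr4:95025629-95027028, was 1400 bp wide, 25.2 kb downstream of the start, with a score of 57.51. The second, at chr4:95040784-95041989, was 1.21 kb wide, 10.2 kb downstream, with a score of 99.53. The third, at chr4:95105369-95106704, was 1.34 kb wide, 53.1 kb upstream, with a score of 64.63. These were narrow peaks at the low end of their list, whose scores begin at 50.01 and have a median of 526.37. Outside coding gene bodies and their 1 kb flanks, 12.8 kb were covered post-caerulein and 7.50 kb untreated around Jun. The shared peak 28.7 kb upstream was 3.05 kb wide post-caerulein and 2.33 kb untreated.

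Junb encodes a Jun protein that activates more weakly than Jun and can oppose it. The gene lies at chromosome 8, 84976909 to 84978748, among 17 other coding genes. Its start peak was 29.5 kb wide post-caerulein (chr8:84963995-84993520) and 19.9 kb untreated (chr8:84972373-84992231), wider than 99.7% and 99.1% of the peaks of those lists. The peak reached 14.8 kb upstream and 14.8 kb downstream of the start post-caerulein, against 13.5 kb upstream and 6.38 kb downstream untreated. On the downstream side the untreated list had a separate peak of 6.53 kb, 1063 bp from the wide one, and the post-caerulein peak ran over both. This domain also covered the neighbours Prdx2, Hook2 and, on the downstream side, Rnaseh2a, so it cannot be assigned to Junb alone.

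Just beyond it, 15.2 kb downstream post-caerulein, a peak over Rnaseh2a was 4.41 kb wide, against 1.80 kb untreated. This 2.45-fold ratio of widths was the largest among the 74 pairs of peaks that overlapped 1 to 1 in the windows. The opposite extreme also lay near Junb: a peak over Tnpo2 was 1402 bp wide post-caerulein and 3165 bp untreated, a ratio of 0.443. In the Junb window, 69.5 kb were covered post-caerulein and 63.2 kb untreated. A post-caerulein peak of 1404 bp at chr8:84952587-84953990 over Rtbdn, with a score of 67.66, had no untreated overlap.

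Jund, the broadly expressed Jun gene, lies at chromosome 8, 70697739 to 70700616, among 13 other coding genes. The start peak was 10.7 kb wide in both lists, and the covered length of the window was the highest of the members in each, 100.6 kb post-caerulein and 101.0 kb untreated. Of these, 97.3 kb were covered in both. All 16 post-caerulein and all 15 untreated peaks overlapped the other list. The widest peaks, over Pgpep1, were 14.2 kb post-caerulein and 17.2 kb untreated, in a stretch where the lists broke 1 long domain at different points: post-caerulein peaks of 12.2, 14.2 and 5.93 kb stood over untreated peaks of 7.81, 6.45 and 17.2 kb. Jund was thus among the members with the most covered length and the fewest differences.

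Atf3 encodes a stress-induced member that is known as a repressor as a homodimer, and in mouse pancreas it is known as a gene of the early response to injury. The gene lies at chromosome 1, 191170296 to 191183333. Its start peak was 5.69 kb wide post-caerulein and 5.97 kb untreated, and it reached 4.23 kb upstream of the start in both lists. A shared domain 36.1 kb upstream post-caerulein was 7.08 kb wide, against 6.07 kb untreated, with Atf3 as the nearest coding gene. The peak 9.52 kb upstream post-caerulein was 2.31 kb wide, against 2.79 kb untreated. Peaks covered 25.0 kb of the window post-caerulein and 28.0 kb untreated. At the far end an untreated peak of 8.68 kb nearest to Nenf stood over post-caerulein peaks of 3.16 and 2.55 kb.

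Batf and Batf3 encode small AP-1 proteins without transactivation domains, known mainly in immune cells, where Batf acts in T cells and Batf3 in dendritic cells. Neither start was marked in either list. Batf, at chromosome 12, 85686720 to 85709087, had a shared peak inside the gene, 17.8 kb from the start, of 1.91 kb post-caerulein and 1.85 kb untreated. Batf3, at chromosome 1, 191098414 to 191108943, had no peak over its body in either list, and no peak of its window had Batf3 as the nearest coding gene. The widest peaks of the Batf3 window, 5.69 kb post-caerulein and 5.97 kb untreated, were those at the Atf3 start.

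Covered length around Batf was 10.6 kb post-caerulein and 6.91 kb untreated, the lowest of the members in each list. Here 2 of 6 post-caerulein peaks had no untreated overlap, at chr12:85623160-85624647 over Jdp2 (1.49 kb, score 71.95) and at chr12:85745588-85747032 over Flvcr2 (1.45 kb, score 82.28). Around Batf3, covered length was 15.1 kb post-caerulein and 18.6 kb untreated. The 2 untreated peaks without overlap there lay over Tatdn3 (chr1:191054352-191055954) and over Nsl1 (chr1:191072426-191073821), the second 511 bp from a post-caerulein peak and also inside the Atf3 window. At both genes the unshared peaks therefore lay over neighbours.

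**Figure D3:**
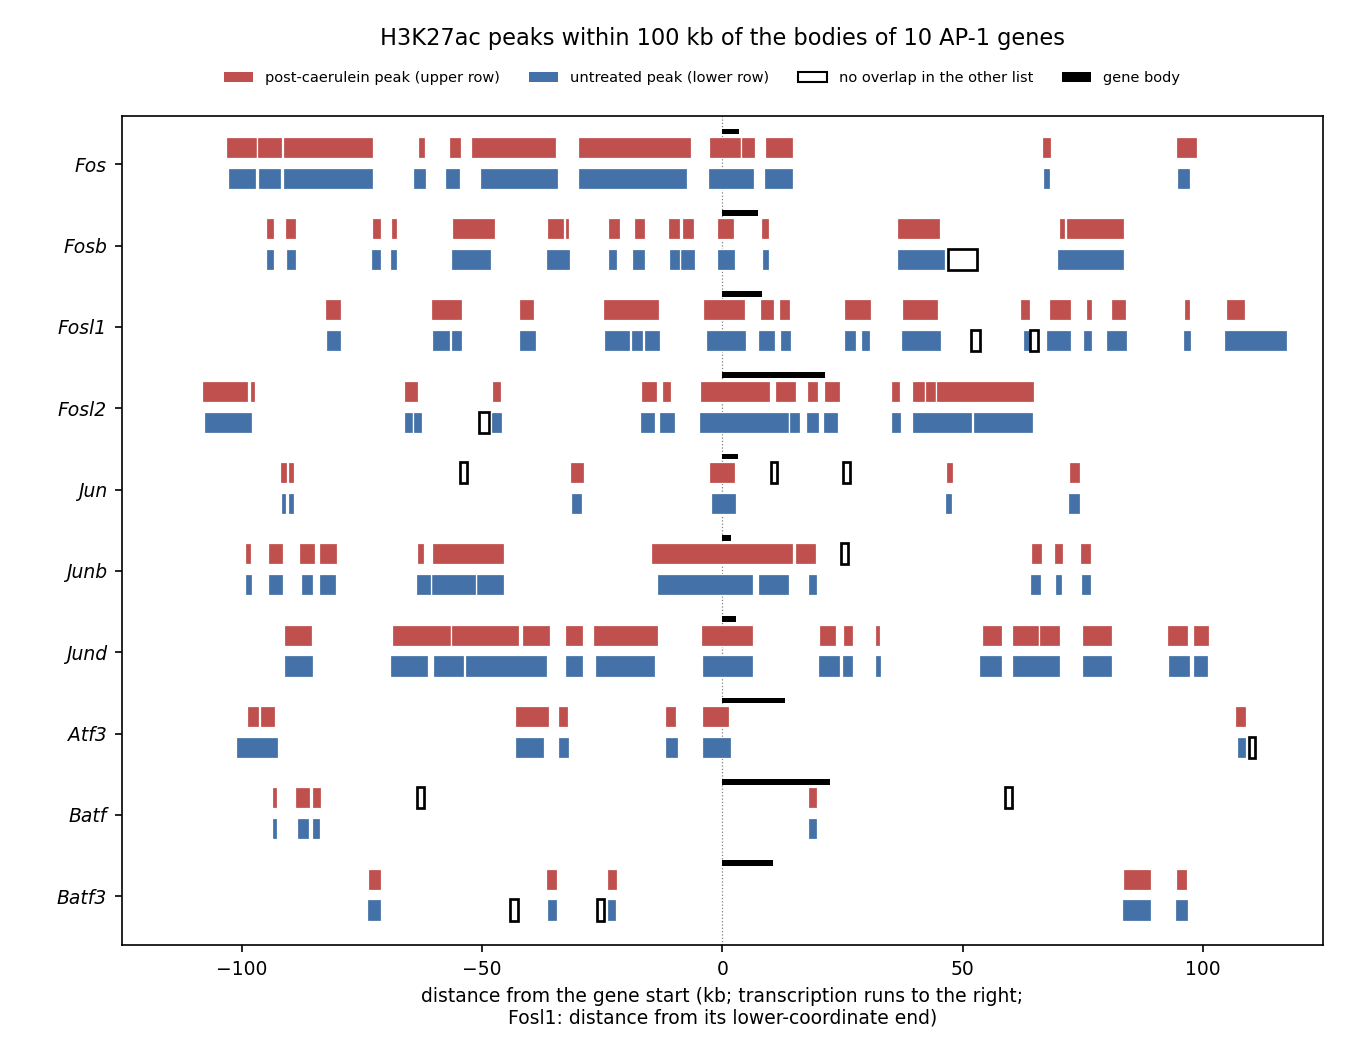
Peaks in the windows of the 10 genes by distance in kb from the gene start, with transcription to the right (Fosl1 is drawn from its lower-coordinate end); for each gene the upper row is post-caerulein and the lower row untreated. Open boxes are peaks with no overlap in the other list, 6 peaks in each list, with the untreated one over Nsl1 drawn for both Atf3 and Batf3, and 3 of the post-caerulein ones stand around Jun.

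Across the windows, 6 of 109 post-caerulein peaks had no untreated overlap, or 5.50% (exact Clopper-Pearson 95% interval 2.05 to 11.6%), against 17.5% of all post-caerulein peaks. Likewise 6 of 109 untreated peaks had no post-caerulein overlap, or 5.50% (2.05 to 11.6%), against 14.3% of all untreated peaks. These intervals treat peaks as independent and cover counting error only. The windows held more high-scoring peaks than the lists as a whole: 60.6% of their peaks post-caerulein and 58.7% untreated reached their own list's median score. Among those, 0 of 66 post-caerulein and 0 of 64 untreated peaks were unshared, beside 0.943% and 1.61% in all peaks of that kind. The exact intervals allow shares of up to 5.44% and 5.60% in the windows. Below the median, 6 of 43 post-caerulein peaks (14.0%, 5.30 to 27.9%) and 6 of 45 untreated peaks (13.3%, 5.05 to 26.8%) were unshared, beside 6609 of 19396 and 5098 of 18882 in the whole lists. The AP-1 windows thus held peaks that were mostly shared, and the unshared ones were all in the lower-scoring part of their list. Most peaks of the whole lists were shared as well. Of their unshared peaks, 6609 of 6792 post-caerulein and 5098 of 5402 untreated ones lay below the median.

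Widths and scores of the unshared peaks were as follows. Those of the post-caerulein list were 1206 to 1488 bp wide, and all 6 had scores in the lowest 25% of their list, beside 72.7% of all unshared post-caerulein peaks. Those of the untreated list were 1396 to 6004 bp wide, and 3 of 6 were in the lowest 25%, beside 68.5% of all unshared untreated peaks. Median widths were 1402 bp post-caerulein and 1706 bp untreated, beside 1464 bp and 1536 bp over all unshared peaks. Post-caerulein ones lay 5.03 to 39.2 kb from the nearest peak of the other list, against 0.066 to 6.86 kb for the untreated ones, of which 3 lay within 1 kb. Over the whole lists, 15.8% of unshared post-caerulein and 12.9% of unshared untreated peaks lay within 1 kb. With 6 peaks in each list, no difference between the lists is drawn from these values. Of the 12 together, 7 lay over the body of another coding gene, 2 were nearest to another gene, and the 3 nearest to a member were those around Jun.

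**Figure D4:**
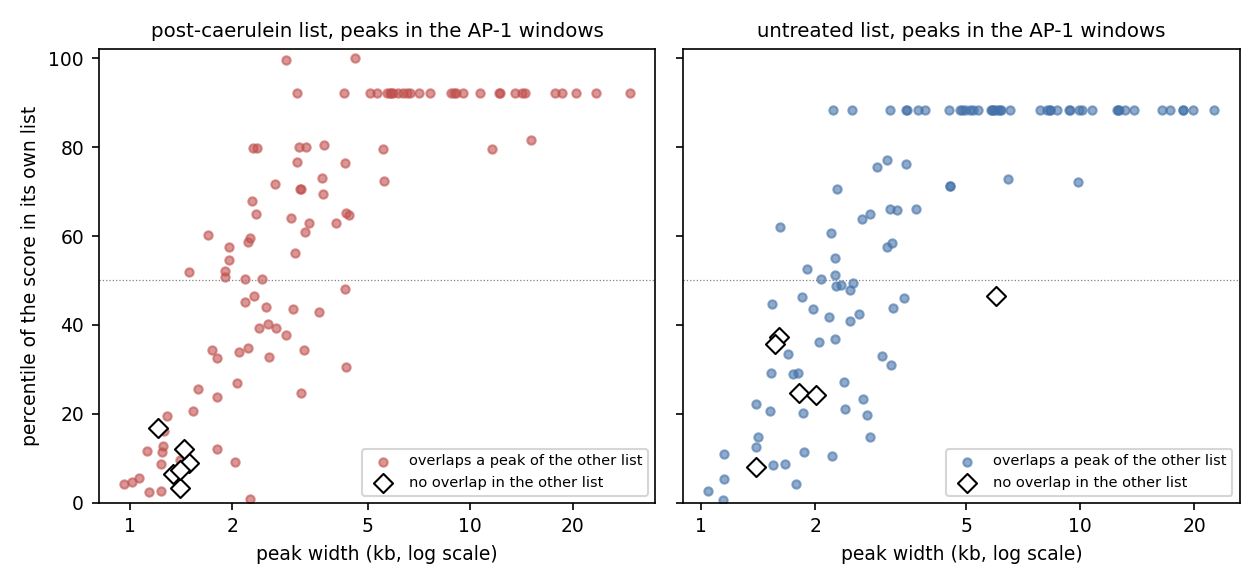
Percentile of each peak's score within its own list against peak width in kb (log axis) for the peaks in the 10 windows, post-caerulein on the left and untreated on the right; open diamonds have no overlap in the other list and the dotted line is the list's median. The diamonds lie below the line, at percentiles 3.38 to 16.8 post-caerulein and 8.08 to 46.5 untreated, and the many peaks that share the score of 3100 form the row near the top.

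Counted by gene, 3 members (Jun, Junb and Batf) had an excess of unshared post-caerulein peaks, beside 30.0% of all protein-coding genes. The opposite held for 5 members (Fosb, Fosl1, Fosl2, Atf3 and Batf3), beside 26.8%, where Atf3 and Batf3 share a peak. Fos and Jund, 2 of 10, had no unshared peak, beside 34.5% of all genes. Each of the other 8 had unshared peaks of 1 list only. With only the peaks nearest to a member among coding genes, Jun alone had an excess post-caerulein and no member had one untreated. Shares of all genes were not computed for one-sided unshared peaks or for the nearest-gene count, so neither is read as particular to the members.

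Covered length was higher post-caerulein for 4 members and lower for 6, beside 44.3% of all protein-coding genes higher and 39.4% lower. The fold, post-caerulein over untreated with 1 kb added to each, was 1.46 for Batf, 1.34 for Jun, 1.10 for Junb, 1.03 for Fos and 0.996 for Jund. It was 0.933 for Fosl1, 0.906 for Fosl2, 0.896 for Atf3, 0.879 for Fosb and 0.818 for Batf3. No member passed 1.5-fold in either direction, beside 5.23% of protein-coding genes higher, 5.03% lower and 89.7% within that range. The median fold was 0.965 over the members and 1.00 over all genes. The median covered length was 60.8 kb post-caerulein and 64.5 kb untreated over the members, beside 17.9 kb and 17.7 kb over all genes. It was not high at every member. Batf exceeded 37.8% of all genes post-caerulein and 30.9% untreated, Batf3 45.5% and 51.3%, Jun 51.3% and 43.4%, and Atf3 59.8% and 64.1%. The remaining members exceeded 88.9% (Fosb) to 98.8% (Jund) of all genes post-caerulein, and 91.5% (Junb) to 99.0% (Jund) untreated. Windows with many coding neighbours, such as those of Jund, Fosb, Fosl1 and Junb, hold the promoters of those genes too, while those of Fos and Fosl2 hold few.

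**Figure D5:**
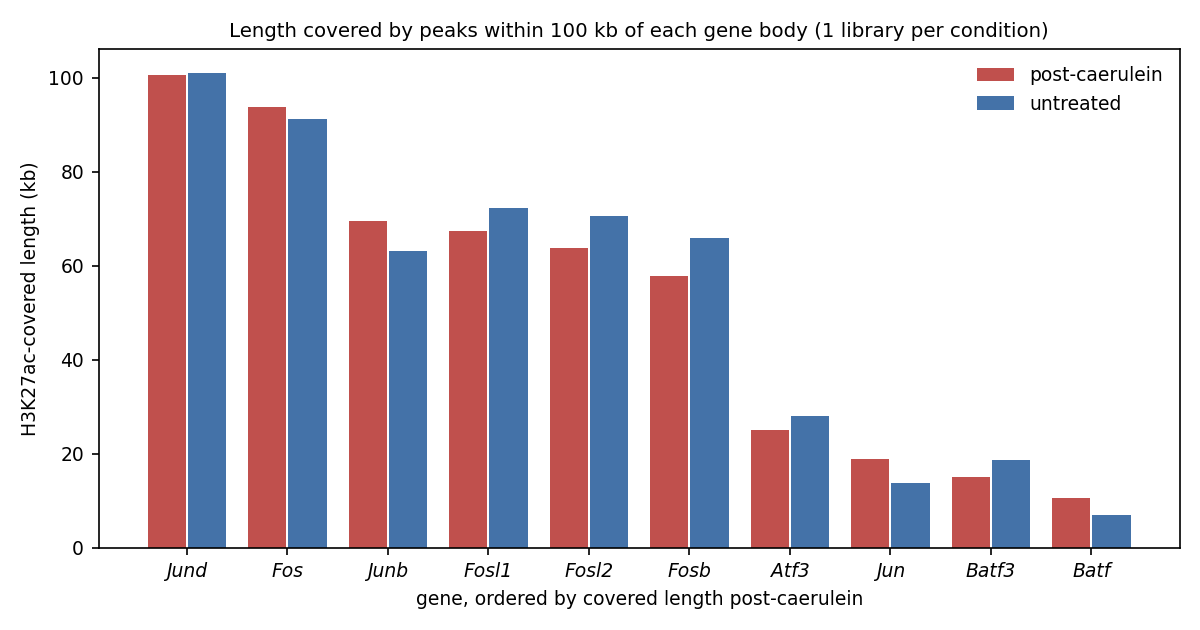
Length in kb covered by H3K27ac peaks within 100 kb of each gene body, post-caerulein (left bar) and untreated (right bar), 1 library per condition, ordered by the post-caerulein value. Jund and Fos have the most, 100.6 and 93.7 kb post-caerulein against 101.0 and 91.1 kb untreated, and Batf the least, 10.6 against 6.91 kb.

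The degree to which the lists covered the same bases also varied. The bases covered in both, as a share of the bases covered in any, were 93.2% around Jund and 91.1% around Fos, and 63.3% around Batf and 68.3% around Jun. The 4 windows with the least covered length (Batf, Batf3, Jun and Atf3) had the 4 lowest shares. Over the 74 pairs that overlapped 1 to 1, the median ratio of widths was 0.997, beside 1.02 over 27197 pairs in the whole lists, and 6 pairs (8.11%) differed by more than 1.5-fold, beside 14.2%. Joined peaks were common: 11 of 109 post-caerulein peaks stood over several untreated ones, beside 4.78% of all, and 12 of 109 untreated peaks over several post-caerulein ones, beside 4.19%. Of these 23, 18 bridged gaps that were all under 500 bp. Peaks in the windows were also wider, with a median of 3011 bp post-caerulein, beside 2495 bp over the list, and 3091 bp untreated, beside 2483 bp; the part of width in the joined peaks was not tested.

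Other genes of the pathway were read in the same way, from 3 lists. Among 15 other bZIP factors that relate to AP-1 or pair with it, 6 had more post-caerulein-only peaks, 3 more untreated-only peaks and 6 neither, beside 30.0%, 26.8% and 43.2% of all protein-coding genes. Maf, a large Maf factor, had 25.1 kb covered post-caerulein and 10.6 kb untreated (2.26-fold), the only gene of the 3 lists past 1.5-fold. Cebpb, a factor of the acute-phase response, had 82.6 kb post-caerulein against 79.6 kb untreated, with 3 unshared peaks post-caerulein and 1 untreated. Crem, a cAMP-responsive factor, had 9.70 kb post-caerulein against 12.0 kb untreated, with 0 unshared peaks post-caerulein and 2 untreated. Jdp2, a repressor of AP-1 that lies between Fos and Batf, had its start marked in both lists and 15.2 kb covered post-caerulein against 11.1 kb untreated; its window overlaps those of both members.

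Among 15 genes of upstream kinases and of serum response factor and its partners, 7 had more post-caerulein-only peaks and 5 more untreated-only peaks, beside the same 30.0% and 26.8% of all genes. All 15 had a marked end in both lists, beside 54.8% of all genes post-caerulein and 54.3% untreated. Mrtfa, the actin-regulated coactivator of serum response factor, had 10 unshared peaks post-caerulein and 0 untreated, and 105.9 kb covered post-caerulein against 73.3 kb untreated (1.44-fold). Map2k1, a kinase of the growth factor pathway, had 7 post-caerulein and 0 untreated, with 69.8 kb against 56.9 kb. The unshared peaks around Mrtfa and Map2k1 thus stood on the post-caerulein side, in windows that hold other genes as well. All of them scored below the list's median, where 34.1% of all post-caerulein peaks were unshared. With a score at or above the median, 0 genes of this list leaned post-caerulein. Both genes were named for their large differences, and the long Mrtfa body (chr15:81012281-81190736) makes its window long too.

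Among 20 genes known as AP-1 targets, 8 had more post-caerulein-only peaks, 3 more untreated-only peaks and 9 neither, beside 30.0%, 26.8% and 43.2% of all genes. A marked end in both lists was found for 14 of 20. Cd44, an adhesion receptor, had 7 unshared peaks post-caerulein and 2 untreated, with 108.0 kb covered post-caerulein against 94.1 kb untreated. Plau, the urokinase protease, had 6 post-caerulein and 2 untreated, with 43.2 kb against 33.8 kb, and Lif, an interleukin-6-type cytokine, had 4 post-caerulein and 2 untreated, with 60.9 kb against 46.9 kb. The median folds of the 3 lists were 1.00, 1.04 and 1.04, near the 1.00 of all genes.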

How the data were processed

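Per the labels, H3K27ac ChIP-seq libraries came from post-caerulein and untreated spheroids (1 each), and the input library has no peak list used here. Reads were trimmed, aligned and called into peaks by the authors, and GRCm38 (mm10), Trimmomatic 0.38, Bowtie2 2.2.6, SAMtools and MACS 1.4 are the build and tools in the submitters' processing notes, which state no options or control. The deposited BED files hold peak positions and the authors' score per peak. The files do not define it, and it was used only to rank or filter peaks within its list. Read depth is unknown.

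Genes and starts came from RefSeq tables for GRCm38.p6. Starts were used for 9 of 10 members. A peak sharing at least 1 bp with the other list was shared. Covered length was clipped to the 100 kb windows, folds had 1 kb added to both lengths, and a gene past 1.5-fold was called. A fold of covered lengths depends on where MACS breaks peaks. Shares have exact 95% intervals, also where the count was 0. Python 3.11.15, pandas 2.3.3, scipy 1.17.1 and matplotlib 3.10.9 were used; counts were tested on simulated peaks and against bedtools 2.31.1. No test between conditions was possible.

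The members and lists were chosen with earlier results of these data known. Named were all members with their start peaks, unshared peaks and widest peaks, and up to 3 genes per pathway list with the largest difference of unshared peaks; some listed genes are not reported here. Jdp2, the marker values, the pairs past 1.5-fold, the joined peaks, other peaks near the starts, and the motifs TGACGT, TGACATCA and CCAAT were added after values or sequences were seen.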

Additional observations from a re-analysis of the deposited data

How the results depend on the processing

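With windows of 10 kb, the log2 fold of covered length was 0.03 for Batf, against 0.55 in the report, 0.00 for Batf3, against -0.29, and 0.00 for Fosl1, against -0.10. The starts marked stayed at 7 of 9 in each list when a peak had to cover the start or lie within 2.5 kb. With a score at or above the list's median, there were 0 post-caerulein and 0 untreated unshared peaks, and 0 members leaned to each side. With windows of 10 kb, there were 1 and 0, and 1 and 0 members leaned. Matching moved the untreated-only peaks more than the post-caerulein-only ones. When a gap of up to 1 kb was allowed there were 6 post-caerulein-only and 3 untreated-only peaks, when peaks within 1 kb were merged 6 and 2, and with at least 50% coverage required 7 and 7. With only the peaks nearest to a member among coding genes, 1 member (Jun) leaned post-caerulein and 0 untreated, and the same share over all genes was not computed. With windows of 50 kb, 1 member (Batf, log2 fold 0.61) was over 1.5-fold higher. In the pathway lists, the score limit left 0 bZIP genes leaning to each side, 0 kinases post-caerulein and 1 untreated, and 1 target post-caerulein and 2 untreated, against 8 and 3 in the report; 50 kb windows left 0 targets leaning untreated. Stricter settings hold fewer peaks by construction; otherwise the cause was not tested.

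No paired analysis was possible because there was a single library of each kind, and none was left out. Biological variation and sequencing depth are unknown, and a peak just missed by the other list's limit cannot be told apart from a change.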
